A study of Mus musculus with 6 samples.

Results

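Tumor necrosis factor (TNF), its receptors and genes known to be induced by it were followed in Raw264.7 macrophages after knockdown of the transcription factor gene *Etv5*. The group held 10 genes of the 24786 in the expression table, taken by gene symbol from a list drawn up with earlier results of these data known. They were the ligands *Tnf* and *Tnfsf9*, the receptors *Tnfrsf1a*, *Tnfrsf1b*, *Cd40* and *Fas*, the adaptor *Traf1*, the ubiquitin ligase *Birc3*, and *Tnfaip3* and *Tnfaip2*, both named as TNF-alpha-induced proteins. Raw264.7 is a mouse macrophage line established from a tumor induced by Abelson murine leukemia virus, which the labels give as strain C57BL/6 and post natal day 21. The study's methods name C57BL/6 for its mice and give no strain for this line, which was bought from ATCC. The line was infected with lentivirus carrying a control short hairpin RNA (sh-NC, genotype control, 3 libraries) or one against *Etv5* (sh-Etv5, 3 libraries). The study's methods add puromycin to the medium of lentivirus-infected Raw264.7 cells, and no other stimulus is named for either group. The labels place expression measurements 24 or 48 hours after infection without saying which applied to these libraries. In the study's methods, lentivirus-infected Raw264.7 cells were cultured further and passaged in rising puromycin before expression was analyzed. The study's results call the sequenced cells stably transfected, and the hairpin used is not named. PolyA RNA was sequenced, and expression is given in RPKM, which is reads scaled by transcript length and by the mapped reads of a library. The labels do not say whether replicates are separate infections, so p-values measure only the spread between these libraries, which may be technical.

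TNF is made by macrophages as a membrane protein that is cut from the surface by a protease and acts as a trimer. Its first receptor, TNFR1 (*Tnfrsf1a*), carries a death domain and builds a ubiquitin-dependent complex that activates NF-κB or, when that complex fails, starts cell death, whereas TNFR2 (*Tnfrsf1b*) has no death domain and recruits TRAF adaptors directly. NF-κB switches on *Tnf* itself and genes that feed back on the pathway, among them *Tnfaip3*, *Traf1* and *Birc3*.

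*Etv5* itself was measured first as a check of the labels. It was 9.18, 9.89 and 9.39 RPKM in sh-NC and 5.19, 4.91 and 5.28 RPKM in sh-Etv5, and the groups did not overlap. The log2 fold change on log2(RPKM + 1), the scale of every fold change below, was -0.78 with a standard error (SE) of 0.0565 (limma, Benjamini-Hochberg adjusted p = 2.74e-07). Of the 50-base stretches in the annotated exons of *Etv5*, 24.5% also occur in another gene, *Gm4798*. RPKM summed over all genes ran from 320462 to 322949 in sh-NC and from 330454 to 340257 in sh-Etv5. The number of reads is unknown, but the spacing of low values placed the read totals at 0.897 to 1.06 times that of sh-NC replicate 1. Of 10 macrophage markers, 9 reached the filter of 1 RPKM in at least 3 libraries, 4 of them higher and 4 lower after knockdown. *Aif1*, among the higher ones, reached the filter only through sh-Etv5. The levels of all 10 summed to 4334 to 4443 RPKM in sh-NC and 3410 to 3530 RPKM in sh-Etv5. Most of each sum was *Lyz2*, with means of 2834 RPKM in sh-NC and 2041 RPKM in sh-Etv5. *Mrc1* stayed under 0.0545 RPKM. The part of these markers in the results below was not tested. Of 29 markers of T cells, B cells, neutrophils, dendritic cells, fibroblasts and epithelium, 0 reached the filter and the highest value was 0.973 RPKM, for *Zbtb46*. The B cell markers summed to 0.0367 to 0.199 RPKM in sh-NC and 0.256 to 0.733 RPKM in sh-Etv5, with *Pax5* and *Ebf1* at 0 in all 6 libraries.

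The promoters of the members with the largest log2 fold changes are shown, and also that of *Tnfaip3*, whose change was smaller. Whether these genes are regulated together was not tested. The RefSeq table (GRCm38.p6) held promoters for 8 of the 10 members, and *Tnfsf9* and *Cd40* were not in it. Each stretch runs 5′ to 3′ on the gene's strand, from 250 bases before the transcription start to 50 bases of the transcript, and capitals mark matches on either strand to the NF-κB consensus (8.46% of 32851 promoters of this length hold one) or to the TATA box TATAAA (13.6%).
Tnf, chr17:35201958-35202257, minus strand: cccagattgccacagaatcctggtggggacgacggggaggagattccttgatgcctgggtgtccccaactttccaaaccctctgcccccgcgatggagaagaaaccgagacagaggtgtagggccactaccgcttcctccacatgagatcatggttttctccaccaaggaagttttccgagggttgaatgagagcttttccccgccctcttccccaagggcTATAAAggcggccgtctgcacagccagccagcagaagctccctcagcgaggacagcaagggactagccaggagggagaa
Fas, chr19:34290409-34290708, plus strand: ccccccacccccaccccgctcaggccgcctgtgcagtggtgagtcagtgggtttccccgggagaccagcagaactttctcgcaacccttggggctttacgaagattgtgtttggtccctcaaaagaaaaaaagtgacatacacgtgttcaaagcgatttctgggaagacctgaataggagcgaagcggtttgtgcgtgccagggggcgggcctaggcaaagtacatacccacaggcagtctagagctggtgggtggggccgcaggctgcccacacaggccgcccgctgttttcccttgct
Tnfrsf1b, chr4:145246821-145247120, minus strand: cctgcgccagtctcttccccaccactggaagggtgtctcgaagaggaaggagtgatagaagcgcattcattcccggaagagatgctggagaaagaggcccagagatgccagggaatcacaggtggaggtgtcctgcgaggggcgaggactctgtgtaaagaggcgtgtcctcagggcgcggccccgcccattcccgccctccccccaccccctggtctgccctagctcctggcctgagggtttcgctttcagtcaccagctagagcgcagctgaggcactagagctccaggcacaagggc
Tnfaip2, chr12:111442411-111442710, plus strand: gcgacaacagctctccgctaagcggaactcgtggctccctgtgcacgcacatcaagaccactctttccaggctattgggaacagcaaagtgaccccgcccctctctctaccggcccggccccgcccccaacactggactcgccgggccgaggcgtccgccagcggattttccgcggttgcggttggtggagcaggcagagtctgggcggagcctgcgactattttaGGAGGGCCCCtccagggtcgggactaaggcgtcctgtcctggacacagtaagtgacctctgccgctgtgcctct
Tnfaip3, chr10:19015361-19015660, minus strand: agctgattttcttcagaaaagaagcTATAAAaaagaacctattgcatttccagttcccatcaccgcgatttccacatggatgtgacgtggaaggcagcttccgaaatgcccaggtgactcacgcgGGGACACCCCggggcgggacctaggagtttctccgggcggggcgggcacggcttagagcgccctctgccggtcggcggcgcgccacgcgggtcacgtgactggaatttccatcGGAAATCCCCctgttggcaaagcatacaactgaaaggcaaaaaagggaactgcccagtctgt
Positions are counted from the RefSeq start site. For *Tnfaip2* (111442661) and *Tnfaip3* (19015410) this site lies inside the gene span that GENCODE gives. Among the promoters not shown, the same holds for *Tnfrsf1a* (125349723), *Birc3* (7873170) and the other start of *Tnfaip3* (19011963). *Tnf* held a TATA box at -29 to -24 and no NF-κB match in this window. *Tnfaip2* held 1 NF-κB match at -24 to -15, on the opposite strand. *Tnfaip3*, which was added to the sequences shown after the matches were seen, held NF-κB matches at 2 places, at -125 to -116 and at -12 to -3, and the first of them reads as a match on both strands. This promoter of *Tnfaip3* also held TATAAA at -225 to -220. *Fas* and *Tnfrsf1b* held no NF-κB match. The promoters not shown, those of *Birc3*, *Traf1*, *Tnfrsf1a* and the other start of *Tnfaip3*, held none either. The ETS consensus CCGGAAGT, the motif of the family to which ETV5 belongs, was searched on both strands and is in 3.89% of promoters. It was found in 0 of the 9 promoters of these 8 members, which says only that these letters are not in these windows.

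All 10 members were higher in Raw264.7/sh-Etv5 cells by the fit across 10738 genes, and in all 10 each sh-Etv5 library exceeded each sh-NC library. Since the members were chosen with results known, these counts describe them and are no independent evidence. For all genes tested, 33.3% were called higher, 41.0% were called lower, and 34.3% had all sh-Etv5 libraries above all sh-NC libraries. A log2 fold change of at least 1 together with a call was found for 6.23% of genes tested and for 6 of the 10 members, which were *Tnf*, *Fas*, *Tnfrsf1b*, *Tnfaip2*, *Cd40* and *Traf1*. The median log2 fold change was 1.59 over the members and -0.05 over all genes tested. *Fas* reached the filter only through the sh-Etv5 libraries, so it had to differ, and the other 9 members reached it in both groups. In RNA from whole cultures, more cells expressing a gene and more RNA per cell cannot be told apart.

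**Figure D1:**
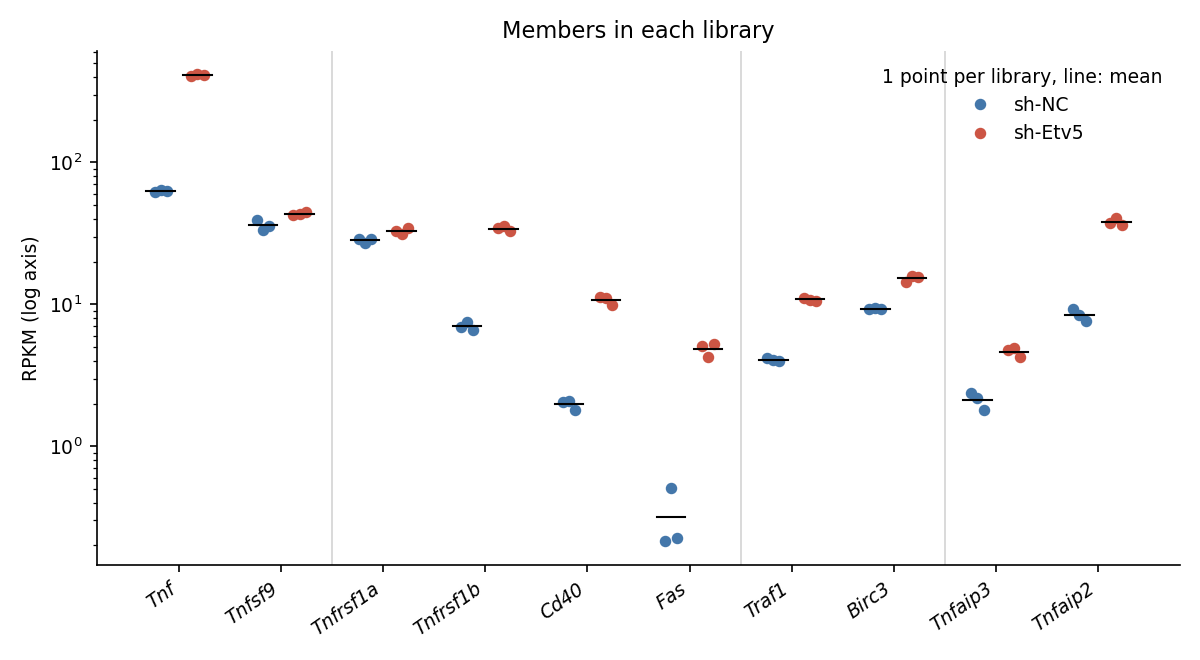
RPKM of each member (log axis) in each of the 6 libraries, with a point per library and a bar at the group mean. In all 10 genes the 3 sh-Etv5 points lie above the 3 sh-NC points, from a narrow gap in *Tnfrsf1a* (28.2 against 32.9 RPKM) to a wide one in *Fas* (0.315 against 4.87 RPKM).

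*Tnf*, which encodes the cytokine itself (chr17:35199381-35202007, minus strand, GRCm38), had the largest log2 fold change of the members on log2(RPKM + 1), while *Fas* had the largest ratio of means (15.4) and the larger log2 fold change at pseudocounts of 0.1 and 0.01. The control libraries held 62.1, 63.8 and 63.2 RPKM, and the knockdown libraries 406, 419 and 411 RPKM. The libraries of a group lay within a few percent of each other and the groups were far apart. The mean went from 63.0 ± 0.896 (SD, n = 3) to 412 ± 6.77 RPKM (SD, n = 3), a 6.53-fold higher level. The log2 fold change was 2.69 (95% interval 2.62 to 2.76, SE 0.0310, limma adjusted p = 1.03e-13), and 0.773% of the genes tested had a larger one. By level, *Tnf* ranked between 949 and 981 of all genes in the sh-NC libraries and between 77 and 90 in the sh-Etv5 libraries.

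*Tnfsf9* encodes the ligand of a T cell costimulatory receptor (chr17:57105325-57107757, plus strand). Its level was 39.1, 33.5 and 35.8 RPKM in sh-NC and 42.8, 43.2 and 44.7 RPKM in sh-Etv5. The groups did not overlap, but sh-NC replicate 1 came close to the lowest sh-Etv5 library. The mean moved from 36.1 ± 2.81 to 43.6 ± 0.989 RPKM (SD, n = 3 each), a 1.21-fold change with a log2 value of 0.27 (SE 0.0525, limma adjusted p = 0.000782). A larger log2 fold change was found for 25.4% of genes tested. Of its exonic bases, 14.9% overlap *Gm11110* on the opposite strand, and the TruSeq kit used does not mark strand. *Tnfrsf9*, which encodes its receptor, stayed at or below 0.346 RPKM in every library.

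The transcripts for the receptors of TNF had fold changes of unlike size. *Tnfrsf1a*, which encodes the death domain receptor TNFR1 (chr6:125349362-125362484, plus strand), was 28.7, 27.0 and 29.0 RPKM in sh-NC and 32.8, 31.3 and 34.6 RPKM in sh-Etv5. All knockdown libraries lay above the controls by a small margin. The group means were 28.2 ± 1.09 and 32.9 ± 1.70 RPKM (SD, n = 3 each), 1.17-fold apart (log2 fold change 0.21, SE 0.0477, limma adjusted p = 0.00180). This was the smallest change among the members, and 28.5% of genes tested had a larger one.

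*Tnfrsf1b*, which encodes TNFR2 (chr4:145213463-145246870, minus strand), stood at 6.90, 7.52 and 6.55 RPKM in sh-NC and at 34.3, 35.5 and 32.7 RPKM in sh-Etv5. Each sh-Etv5 library held more than 4 times the highest sh-NC level. The mean was 4.88-fold higher, at 6.99 ± 0.489 against 34.2 ± 1.44 RPKM (SD, n = 3 each; log2 fold change 2.14, SE 0.0556, limma adjusted p = 7.70e-11). A larger log2 fold change was found for 1.27% of genes tested.

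Within each library, the ratio of *Tnfrsf1b* to *Tnfrsf1a* RPKM does not depend on how libraries are scaled. The ratio was 0.241, 0.279 and 0.226 in the sh-NC libraries and 1.04, 1.14 and 0.942 in the sh-Etv5 libraries. The transcript for TNFR2 was thus well below that for TNFR1 in each control library and near it in each knockdown library. The mean ratio was 0.249 ± 0.0272 in sh-NC and 1.04 ± 0.0972 in sh-Etv5 (SD, n = 3 each), and the log2 ratios differed by 2.07 (exact two-sided permutation test, p = 0.1, the smallest that 3 libraries against 3 can give).

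*Cd40* encodes the costimulatory receptor through which T cells activate macrophages, dendritic cells and B cells (chr2:165055627-165072948, plus strand). Its level was 2.06, 2.09 and 1.81 RPKM with sh-NC, against 11.2, 11.1 and 9.81 RPKM with sh-Etv5. The groups were well separated although the gene was low in the controls. The mean went from 1.99 ± 0.155 to 10.7 ± 0.760 RPKM (SD, n = 3 each), 5.38-fold higher (log2 fold change 1.97, SE 0.0709, limma adjusted p = 9.36e-10). The gene for its ligand, *Cd40lg*, was listed at 0 in all 6 libraries.

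*Fas* encodes a death receptor that triggers apoptosis on binding Fas ligand (chr19:34290666-34327772, plus strand). It was near absent from the controls, at 0.214, 0.507 and 0.225 RPKM, and reached 5.11, 4.29 and 5.21 RPKM after knockdown. The 3 sh-Etv5 libraries were all above 4 RPKM and the 3 sh-NC libraries all below 1 RPKM. The ratio of the means, 0.315 ± 0.166 and 4.87 ± 0.508 RPKM (SD, n = 3 each), was 15.4. The log2 fold change was 2.16 (SE 0.104, limma adjusted p = 9.29e-09) and depended on the pseudocount for this low gene, with 3.65 at a pseudocount of 0.1 and 4.01 at 0.01. Because *Fas* reached the filter only through sh-Etv5, this p-value is no independent evidence of a difference. *Fasl*, for Fas ligand, was at most 0.125 RPKM in sh-NC and listed at 0 in all sh-Etv5 libraries.

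The signalling genes *Traf1*, *Birc3* and *Tnfaip3* had smaller fold changes on this scale than *Tnfrsf1b*, *Cd40* and *Fas*. *Traf1* encodes an adaptor that joins TNFR2 complexes together with TRAF2 (chr2:34941750-34961772, minus strand). Its values were 4.20, 4.06 and 3.99 RPKM in sh-NC and 11.1, 10.8 and 10.6 RPKM in sh-Etv5. The spread within each group was small against the gap between them. The means, 4.08 ± 0.108 and 10.8 ± 0.254 RPKM (SD, n = 3 each), were 2.65-fold apart (log2 fold change 1.22, SE 0.0539, limma adjusted p = 4.63e-09).

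*Birc3* encodes cIAP2, a ubiquitin ligase of the TNFR1 and TNFR2 complexes that protects from cell death (chr9:7848699-7873186, minus strand). The 3 control libraries gave 9.21, 9.40 and 9.34 RPKM, and the 3 knockdown libraries 14.5, 15.8 and 15.5 RPKM. The controls were nearly identical and all knockdown libraries lay above them. The mean rose 1.64-fold, from 9.32 ± 0.0928 to 15.2 ± 0.690 RPKM (SD, n = 3 each; log2 fold change 0.65, SE 0.0496, limma adjusted p = 3.81e-07). Of its 50-base stretches, 7.38% also occur in other genes.

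*Tnfaip3* encodes A20, a ubiquitin-editing enzyme that shuts off NF-κB signalling (chr10:19000910-19015657, minus strand). It was low in both groups, at 2.36, 2.20 and 1.79 RPKM in sh-NC and 4.74, 4.92 and 4.27 RPKM in sh-Etv5. The lowest knockdown library was still above the highest control. The mean was 2.12 ± 0.298 against 4.65 ± 0.337 RPKM (SD, n = 3 each), 2.19-fold higher (log2 fold change 0.86, SE 0.0854, limma adjusted p = 3.65e-06).

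*Tnfaip2* encodes a protein linked to membrane protrusions and the exocyst (chr12:111442469-111455018, plus strand). Controls gave 9.26, 8.40 and 7.69 RPKM, and knockdown libraries 37.2, 40.5 and 36.3 RPKM. The groups were well apart. The mean went from 8.45 ± 0.790 to 38.0 ± 2.20 RPKM (SD, n = 3 each), 4.49-fold higher (log2 fold change 2.05, SE 0.0648, limma adjusted p = 3.45e-10). Of its exonic bases, 6.3% overlap *Gm40578* on the opposite strand.

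**Figure D2:**
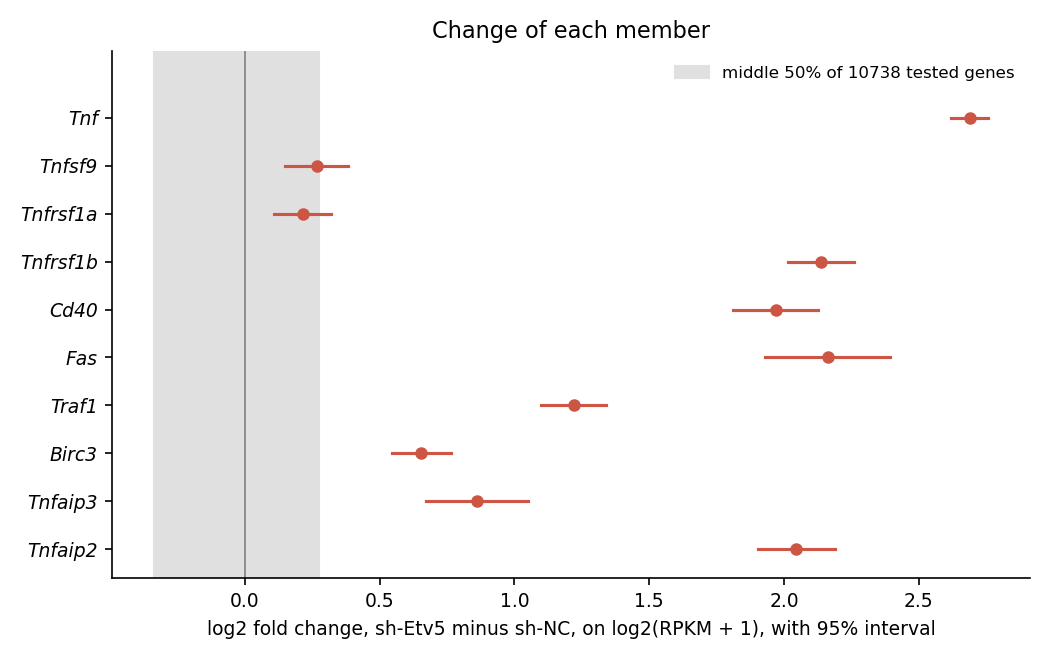
Log2 fold change of each member on log2(RPKM + 1), sh-Etv5 minus sh-NC, with the 95% interval from limma and, in grey, the range that holds the middle 50% of all 10738 genes tested (-0.34 to 0.28). The estimates for *Tnfsf9* (0.27) and *Tnfrsf1a* (0.21) lie inside the grey range, and the other 8 members lie to its right, up to 2.69 for *Tnf*.

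The order of the members by level, which RPKM allows since it is per length, differed between the groups. In Raw264.7/sh-NC cells *Tnf* was highest, followed by *Tnfsf9*, *Tnfrsf1a*, *Birc3*, *Tnfaip2*, *Tnfrsf1b*, *Traf1*, *Tnfaip3*, *Cd40* and *Fas*. The neighbours *Birc3* and *Tnfaip2*, and likewise *Tnfaip3* and *Cd40*, had overlapping libraries. In Raw264.7/sh-Etv5 cells the order was *Tnf*, *Tnfsf9*, *Tnfaip2*, *Tnfrsf1b*, *Tnfrsf1a*, *Birc3*, *Traf1*, *Cd40*, *Fas* and *Tnfaip3*. There the libraries of *Tnfrsf1b* and *Tnfrsf1a*, of *Traf1* and *Cd40*, and of *Fas* and *Tnfaip3* overlapped. *Tnf* and *Tnfsf9* kept the top of the order in both groups, while *Tnfaip2* and *Tnfrsf1b* moved above *Tnfrsf1a* and *Birc3* by their means.

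The pathway around the members was described with 9 lists that hold 107 genes of the table, 10 of them members. Of the 68 genes outside the members that reached the filter, 28 rose, 25 fell and 15 did not pass the test, beside 33.3% higher and 41.0% lower over all genes tested. Over all 78 tested list genes the median log2 fold change was 0.13. Several genes sit in more than 1 list.

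Of 18 genes for TNF superfamily ligands, 5 reached the filter. *Tnf*, *Tnfsf9* and *Ltb* were higher and the other 2, *Tnfsf12* and *Tnfsf13b*, were not called. Without the members, 1 of 3 was higher, beside 33.3% of all genes tested. *Ltb* encodes lymphotoxin beta, a membrane partner of lymphotoxin alpha, and its mean went from 32.9 to 72.6 RPKM (log2 fold change 1.12). It lies at chr17:35194439-35196320 on one side of *Tnf*, and *Lta*, for lymphotoxin alpha, lies at chr17:35203165-35205351 on the other. *Lta* stayed below the filter, with a mean of 0.263 RPKM in sh-NC and 0.850 RPKM in sh-Etv5. *Tnfsf13*, for the B cell factor APRIL, was also below it, at 0.981 and 0.567 RPKM, and 60.0% of its exonic bases lie in other genes, *Tnfsfm13* and the antisense *Tnfsf13os*.

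Among 28 receptor genes of the TNF superfamily, 15 reached the filter, with 11 higher, 3 lower and 1 not called (median log2 fold change 0.72). Of the 11 that are not members, 7 were higher and 3 lower, beside 33.3% higher and 41.0% lower over all genes tested. The middle value of these 11 was that of *Tnfrsf22* (0.27), inside the range of the middle 50% of all genes tested. Outside the members, the largest changes were those of *Eda2r*, *Tnfrsf13b* and *Tnfrsf23*. *Eda2r*, for a receptor of ectodysplasin A2, went from 0.273 to 1.43 RPKM (log2 fold change 0.93) and, like *Fas*, reached the filter only through sh-Etv5. *Tnfrsf13b*, for the BAFF and APRIL receptor TACI, went from 1.01 to 2.71 RPKM (0.89). *Tnfrsf23*, for a decoy receptor of TRAIL, went from 4.84 to 9.78 RPKM (0.89), and 18% of its 50-base stretches are shared with *Tnfrsf22*. The 3 lower genes were *Tnfrsf11a*, for the osteoclast differentiation receptor RANK (-0.52), *Relt* (-0.36) and *Tnfrsf12a*, for the TWEAK receptor (-0.17). The call for *Tnfrsf12a* was lost without sh-NC replicate 3 (-0.12, limma adjusted p = 0.0807).

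**Figure D3:**
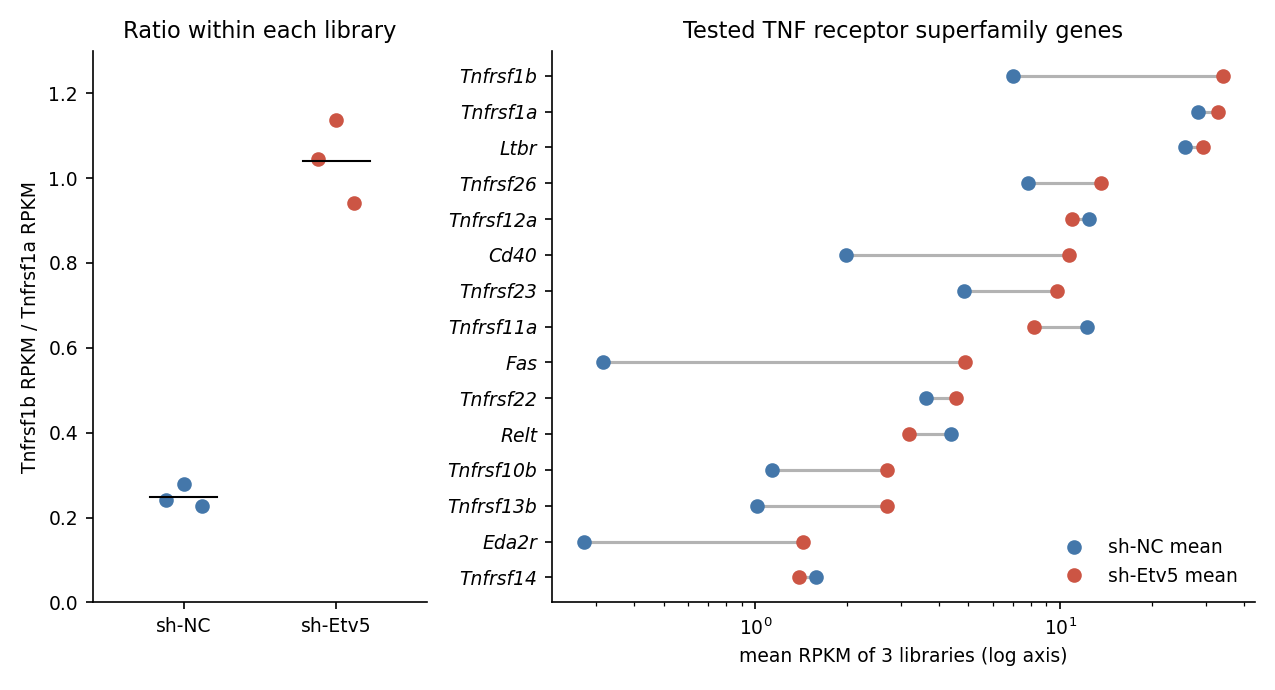
Left, the ratio of *Tnfrsf1b* to *Tnfrsf1a* RPKM within each library (1 point per library, line at the group mean), which lies between 0.226 and 0.279 in sh-NC and between 0.942 and 1.14 in sh-Etv5. Right, the mean RPKM of 3 libraries per group (log axis) for the 15 receptor genes that reached the filter, where *Fas* (0.315 to 4.87), *Cd40* (1.99 to 10.7) and *Tnfrsf1b* (6.99 to 34.2) span the widest gaps among the members and *Tnfrsf1a* (28.2 to 32.9) a narrow one.

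Genes for other adaptors and complex members were called in both directions. Of 7 TRAF genes, *Traf1* and *Traf4* were higher, 4 were lower and 1 was not called (median -0.25). By share, 28.6% were higher and 57.1% lower, beside 33.3% and 41.0% of all genes tested. Without the member *Traf1*, 1 of 6 was higher and 4 were lower. *Traf2*, for the adaptor that TRAF1 joins, went from 11.0 to 7.41 RPKM (-0.51), *Traf3*, for a brake on non-canonical NF-κB, from 8.75 to 6.27 RPKM (-0.42), and *Traf7* from 34.0 to 25.6 RPKM (-0.40). Of 16 genes for the TNFR1 signalling complex, 3 rose, 7 fell and 6 did not pass the test (median -0.16). Here 18.8% were higher, beside 33.3% of all genes tested, and the 43.8% lower is near the 41.0% of all genes tested. Without the member *Birc3*, 2 of 15 were higher and 7 lower. *Tab1*, for a subunit of the TAK1 kinase complex, went from 11.1 to 7.23 RPKM (-0.56), and *Rbck1*, for the HOIL-1 subunit of the linear ubiquitin ligase, from 44.2 to 31.0 RPKM (-0.50).

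Of 9 genes listed as brakes on TNF receptor signalling, 8 were higher, against 33.3% of all genes tested, and *Itch* was not called (median 0.32). Beside *Tnfaip3* these included *Tnip1*, for an A20-binding protein, from 27.8 to 63.7 RPKM (log2 fold change 1.17). *Otulin*, for the linear deubiquitinase, rose from 31.8 to 50.9 RPKM (0.66), and *Tnip2*, for another A20-binding protein, from 9.21 to 12.8 RPKM (0.44).

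The death arm of the receptors, which *Fas* and *Tnfrsf1a* feed into, was mixed, with 4 of 7 genes higher, 2 lower and 1 not called (median 0.27). As shares these are 57.1% higher and 28.6% lower, beside 33.3% and 41.0% of all genes tested. *Cflar*, for the caspase inhibitor cFLIP, went from 8.04 to 18.8 RPKM (log2 fold change 1.13). The necroptosis genes *Mlkl* and *Ripk3* rose as well, from 7.34 to 15.4 RPKM (0.97) and from 20.8 to 37.9 RPKM (0.83). The lower genes were *Fadd*, for the adaptor that binds FAS (-0.46), and *Bid*, for the link to mitochondria (-0.36).

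Of 8 genes of the Tnfaip family, 6 reached the filter, and 4 of these were higher, 1 was lower and 1 was not called (median 0.53). Without the members *Tnfaip2* and *Tnfaip3*, 2 of 4 were higher and 1 lower, beside 33.3% and 41.0% of all genes tested. The list is grouped by name, and *Tnfaip8* and its like-named relatives form a protein family of their own within it. *Tnfaip8l2*, for the immune regulator TIPE2, went from 24.0 to 38.3 RPKM (log2 fold change 0.65), and *Tnfaip1* from 19.2 to 26.1 RPKM (0.42). *Tnfaip8l1* was the lower gene, from 3.14 to 1.24 RPKM (-0.91).

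Genes that act on TNF after transcription moved in both directions. Of 6 genes for TNF shedding, 5 reached the filter, with 2 higher, 2 lower and 1 not called. These shares, 40.0% each, stand beside 33.3% higher and 41.0% lower over all genes tested. *Adam17*, for the protease that cuts TNF from the membrane, went from 49.6 to 33.2 RPKM (log2 fold change -0.57, limma adjusted p = 6.15e-08), and *Adam10*, for a related protease, from 47.5 to 29.0 RPKM (-0.69). The genes for the partners that carry ADAM17 to the surface rose, *Rhbdf2* from 22.4 to 51.5 RPKM (1.17) and *Rhbdf1* from 0.720 to 2.997 RPKM (1.22), and *Rhbdf1* reached the filter only through sh-Etv5. Of 11 genes for turnover of *Tnf* and like mRNAs, 2 rose and 7 fell, with 2 not called (median -0.25). Here 18.2% were higher and 63.6% lower, beside 33.3% and 41.0% of all genes tested. The higher pair were *Zfp36*, for tristetraprolin, which binds AU-rich elements and speeds decay, from 19.0 to 106.9 RPKM (2.43), and *Zc3h12a*, for the endonuclease Regnase-1, from 4.02 to 24.0 RPKM (2.32). *Zfp36l2*, a relative of *Zfp36*, went the other way, from 44.4 to 24.6 RPKM (-0.83).

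**Figure D4:**
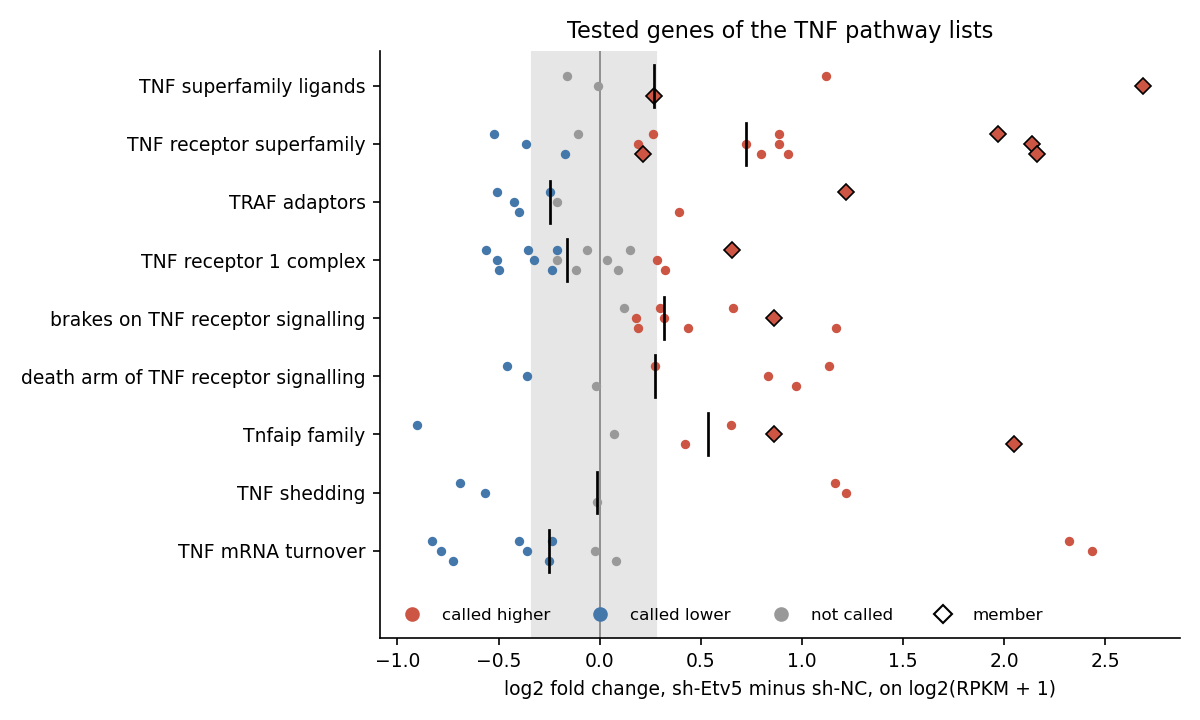
Log2 fold change (sh-Etv5 minus sh-NC, on log2(RPKM + 1)) of every tested gene of the 9 pathway lists, coloured by call, with members as diamonds, a black bar at each list's median and the middle 50% of all genes tested in grey. The receptor list, which includes the members *Tnfrsf1a*, *Tnfrsf1b*, *Cd40* and *Fas*, has its median to the right of the grey range at 0.72. The middle value of its 11 genes outside the members, that of *Tnfrsf22* (0.27), lies inside that range. The TRAF adaptors have their median at -0.25. *Zfp36* (2.43) and *Zc3h12a* (2.32) stand far to the right of the other genes for mRNA turnover.

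The genes whose pattern was most like that of *Tnf* were chosen by the smallest root mean square distance over the 6 libraries, on log2(RPKM + 1) after subtracting each gene's own sh-NC mean. *C3ar1*, for a complement anaphylatoxin receptor, was closest at a distance of 0.0443, with means of 3.46 RPKM in sh-NC and 27.7 RPKM in sh-Etv5. *Smim3* followed at 0.0551, with 1.82 and 18.1 RPKM, and *Gch1*, for the first enzyme of tetrahydrobiopterin synthesis, at 0.0595, with 4.55 and 34.9 RPKM. These 3 genes were lower than *Tnf* by level in both groups. Their log2 fold changes of 2.69, 2.76 and 2.69 are near that of *Tnf* by the way they were chosen and on this scale, while the ratios of their means were 8.01, 9.95 and 7.66 against 6.53 for *Tnf*.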

How the data were processed

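PolyA RNA of 3 sh-NC and 3 sh-Etv5 libraries of Raw264.7 cells was sequenced by the authors, who deposited 1 table of RPKM per gene. The labels name the genome build mm10, and the counting tool is not given in the sources used here. RPKM are not counts, so no count model was used. Genes that reached 1 RPKM in 3 or more of the 6 libraries (10738 of 24786) were tested on log2(RPKM + 1) with limma 3.58.1 (R 4.3.3, lmFit and eBayes with trend, two-sided), called under a Benjamini-Hochberg adjusted p of 0.05 over all genes tested. The pseudocount of 1 understates changes of low genes. Absolute depth is unknown, so no counting interval is given, and relative depth came from the most frequent ratio of low values between libraries. Correlations of log2 values were 0.9957 to 0.9973 within groups and 0.9134 to 0.915 between them. The receptor ratio was tested by exact permutation with SciPy 1.17.1. Coordinates are from GENCODE on GRCm38, the same assembly as mm10, and promoters from RefSeq. The limma step was tested on simulated data.

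The members and lists were chosen with earlier results of these data known. Besides members, the 3 called genes of largest absolute change per list were named, any list gene below the filter that reached 1 RPKM in a library, the 3 genes nearest to *Tnf*, and *Etv5*. Named after their values were seen were *Tnfsf12*, *Tnfsf13b*, *Tnfrsf9*, *Cd40lg*, *Fasl*, *Tnfrsf11a*, *Relt*, *Tnfrsf12a*, *Traf4*, *Itch*, *Fadd*, *Bid* and *Adam17*, and the search for TATAAA was added then. *Spata2*, *Tax1bp1*, *Cyld*, *Tnip3* and the markers *Lyz2* and *Aif1* were likewise named with their values seen. Alternatives were other pseudocounts, filters, scalings, limma without trend, a replicate block and leaving out each library.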

Additional observations from a re-analysis of the deposited data

How the results depend on the processing

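All 10 members stayed called higher under each alternative in which they were tested, in 148 of 148 values; *Fas* and *Tnfaip3* did not reach a mean of 5 RPKM and were not tested under that filter. The widest range was that of *Fas*, at 2.09 to 4.01, and *Tnfrsf1a* ranged from 0.16 to 0.27. Over all genes, leaving out each library in turn gave 3358 to 3494 higher and 4140 to 4371 lower, against 3575 and 4399 with all 6. Rescaling libraries to the same sum gave 3124 higher and 4922 lower and moved the median of all genes from -0.049 to -0.104. The replicate numbers did not pair the libraries (correlations of same-numbered deviations 0.0739, -0.071 and -0.0352); a replicate block gave 3539 higher and 4361 lower with 10 members higher, and changed no call of a named gene. With a mean of at least 5 RPKM, which tests fewer genes, 6 receptors were higher in place of 11, 1 TRAF gene in place of 2, 1 shedding gene in place of 2, and 0 Tnfaip genes were lower in place of 1. The ligand *Tnfsf12* became lower without sh-Etv5 replicate 1 (-0.20, limma adjusted p = 0.0443), with the same sum and with quantile normalization, and 2 ligands were lower with no filter. *Tnfrsf12a* was also lost with no filter (adjusted p = 0.0631), *Tradd* likewise (0.0700), and *Cyld* with the same sum (0.0692). For these the cause was not tested. Since absolute depth is unknown, the counting error of low genes was not tested.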
